A study of Mus musculus with 8 samples.

Results

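The Dlk1-Dio3 domain is a cluster of imprinted genes on mouse chromosome 12, and 6 of its genes were followed here out of the 23389 gene symbols with a deposited value. They were picked by name, as the non-coding RNA genes Meg3, Rian and Mirg, which are read from the maternal chromosome, and the coding genes Dlk1, Rtl1 and Dio3, which are read from the paternal chromosome. The study profiled 8 mouse poly-A RNA libraries in 4 groups of 2. Induced pluripotent stem (iPS) clones were made from mouse embryonic fibroblasts (MEF) with Oct4, Klf4 and Sox2 plus IL6 at 10 ng/mL (3F+IL6), or with 4 factors (4F). Both clones of a kind came from separate derivations. The references were biological replicates of D3-GFP embryonic stem (ES) cells and of MEF. The ES cells were of the 129S2/SvPas background, the clones and MEF BALB/c, and effects of strain on a difference from ES cells cannot be told apart from those of cell type. The factor set and IL6 change together between the kinds of clone.

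Imprinting of the domain is set by a region upstream of Meg3 that carries DNA methylation on the paternal chromosome only. On the maternal chromosome this region is unmethylated, and Meg3, Rian and Mirg are transcribed one after the other, carrying many small nucleolar RNAs and microRNAs (miRNAs), while the coding genes are silent. In iPS cells the domain is known as a place where imprinting can be lost during reprogramming, with the maternal RNAs turned off. The reads were not split by parent here, so parental origin is background and was not measured.

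In the GENCODE M21 annotation of mm10, Dlk1 lies at chr12:109452823-109463336 and Meg3 at chr12:109541001-109571726, both on the plus strand. Rtl1 follows at chr12:109589193-109600330 on the minus strand, between Meg3 and Rian (chr12:109603940-109661716, plus strand). Mirg is at chr12:109729764-109749460 and Dio3 at chr12:110279068-110281097, both on the plus strand. The gaps between neighbouring members were 77.7, 17.5, 3.6, 68.0 and 529.6 kb, in map order. RefSeq draws Rtl1 longer, from 109564900 to 109604418, so that it overlaps the end of Meg3 and the start of Rian on the opposite strand. The labels state no strand-specific step, so reads of Rtl1 and of transcripts that cross it from the other strand cannot be told apart.

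**Figure D1:**
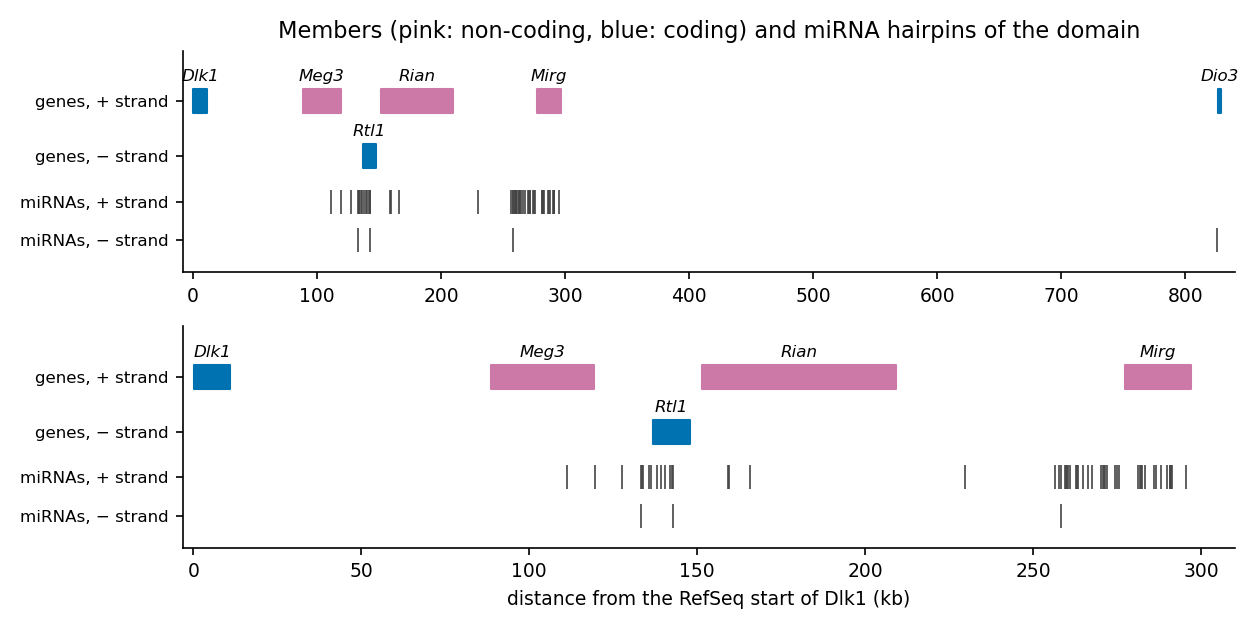
Map of the members and of the 58 miRNA hairpins of the domain whose sequence the RefSeq table used here holds, by distance in kb from the start of Dlk1 (upper panel: the whole 828.6 kb, lower panel: the first part enlarged). Bars are genes and ticks are hairpins, by strand. On the plus strand there are 54 hairpins, and Dio3 is the only member at the far end, with a minus-strand hairpin beside it.

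The promoter windows below show the sequence at the start of the first maternal and the first paternal gene, whose levels the results compare. They are the RefSeq windows of GRCm38.p6 from 250 bases before to 50 bases after the start, on the plus strand. Capitals mark 4 motifs searched on both strands: the cyclic AMP response element TGACGTCA, the TATA box TATAAA, the CCAAT box CCAAT and TGCCGC, the core of the site bound by the imprint-maintaining protein ZFP57 when methylated.
Meg3, chr12:109540746-109541045: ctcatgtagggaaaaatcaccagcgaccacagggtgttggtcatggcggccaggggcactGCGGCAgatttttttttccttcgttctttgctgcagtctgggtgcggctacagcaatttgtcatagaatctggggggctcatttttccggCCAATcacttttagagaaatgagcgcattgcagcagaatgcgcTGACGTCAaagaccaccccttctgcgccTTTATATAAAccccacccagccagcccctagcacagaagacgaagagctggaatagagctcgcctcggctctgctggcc
Dlk1, chr12:109452573-109452872: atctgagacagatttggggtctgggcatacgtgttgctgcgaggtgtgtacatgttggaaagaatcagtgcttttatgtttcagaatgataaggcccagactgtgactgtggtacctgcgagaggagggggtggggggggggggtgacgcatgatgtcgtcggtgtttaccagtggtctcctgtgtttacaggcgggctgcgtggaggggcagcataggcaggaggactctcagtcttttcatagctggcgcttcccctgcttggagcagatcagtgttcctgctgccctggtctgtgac

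The Meg3 window shown held all 4 motifs. Another RefSeq window of Meg3, at chr12:109545148-109545447, held none of them and had 1 CpG pair. TGACGTCA, which reads the same on both strands, began 57 bases before the start and occurs in 1.79% of the 32851 RefSeq windows of this length. TATAAA matched on each strand within the overlapping run TTTATATAAA, beginning 29 and 25 bases before the start, and 13.6% of windows hold it. CCAAT (37.4% of windows) began 100 bases and TGCCGC (11.6% of windows), on the minus strand, 190 bases before the start. None of the 4 was found in the Dlk1 window or in that of Rian, Mirg had CCAAT, and Dio3 had TATAAA and CCAAT. CpG pairs numbered 25 in the Dio3 window, 13 in the Meg3 window shown and 10 in that of Mirg. The Dlk1 window had 9 and that of Rian 0, beside a median of 7 over all windows. Of the 6 members, 5 matched the table, and Rtl1 did not. A match describes these letters, not a site in use.

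The values are RPKM, that is, reads per length of gene and per size of library. Depth, estimated from the steps of low values, ran from 11750000 to 18000000 reads. A gene entered the fit when it reached 1 RPKM in at least 2 libraries, which 13200 genes did. The counts for gene lists below include genes that reached this level only in clones or only in MEF. Differences are on the log2(RPKM + 1) scale, which understates changes of low genes, and "called", "higher" and "lower" in a test mean a limma adjusted p under 0.05. The labelled cell types were checked by markers. All 12 pluripotency markers reached 1 RPKM in each ES and iPS library, summing to 5168 to 6419 RPKM against 28.8 and 29.1 in MEF, and 20 fibroblast markers summed to 7852 and 7787 RPKM in MEF. The clones held 408 to 632 RPKM of these fibroblast markers and the ES libraries 85.3 and 88.6. As these are bulk samples, fewer cells of a type and less RNA per cell cannot be told apart.

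Rian, Meg3 and Mirg, the 3 maternal RNAs, were lowest in ES cells, intermediate in every iPS clone and highest in MEF. Rian carries the box C/D small nucleolar RNAs of the domain and was the most abundant member per length. Its level was 2.29 and 2.24 RPKM in ES, 40.1 and 15.3 in 3F+IL6, 19.98 and 23.9 in 4F, and 118 and 117 in MEF. No library of the clones fell within the range of ES or of MEF, while the 3F+IL6 clones lay on either side of both 4F clones. Meg3, a long non-coding RNA named for its maternal expression and known as a growth suppressor in tumour cells, stood at 0.332 and 0.308 RPKM in ES, 4.72 and 1.58 in 3F+IL6, 2.52 and 3.65 in 4F, and 23.999 and 23.957 in MEF. The order of the groups was that of Rian, and again the 3F+IL6 clones held both the highest and the lowest clone value. Mirg hosts the large miRNA cluster at the distal end, and measured 0.445 and 0.156 RPKM in ES, 3.02 and 0.928 in 3F+IL6, 1.32 and 1.18 in 4F, and 6.95 and 7.18 in MEF. ES replicate 1 had 2.85 times the Mirg of replicate 2, at a level under 0.5 RPKM in both.

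**Figure D2:**
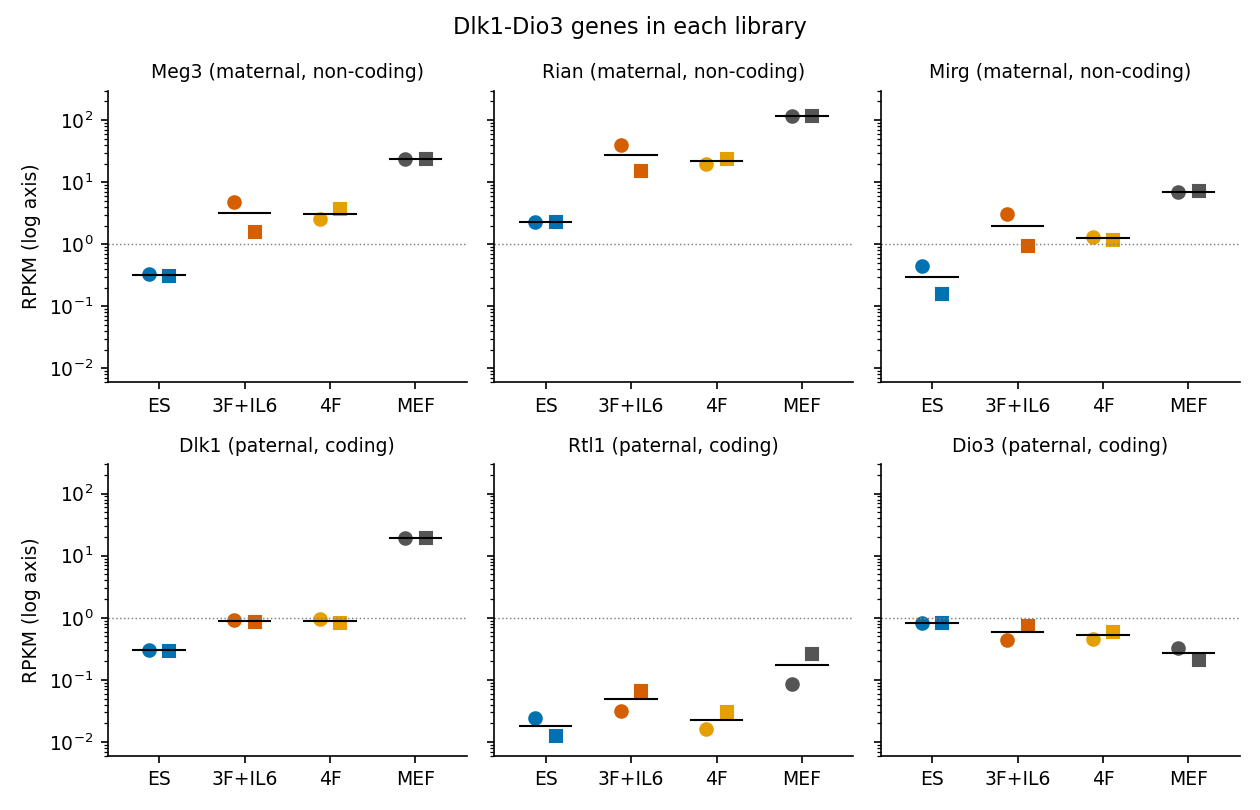
RPKM of each member (log axis) in the 8 libraries, with circles for replicate 1, squares for replicate 2, a bar at each group's mean and a dotted line at 1 RPKM. Rian, Meg3, Mirg and Dlk1 step up from ES to the clones to MEF, Rtl1 stays under 0.258, and Dio3 runs the other way, from 0.821 in ES to 0.206 in MEF.

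Against ES cells, the 3F+IL6 clones had more of all 3 maternal RNAs. Rian was higher by 2.99 (SE 0.37, limma adjusted p = 0.00044), a 12.2-fold ratio of mean RPKM, and ranked 125th of 13200 genes from the most increased. Meg3 was higher by 1.54 (SE 0.34, limma adjusted p = 0.0059; 9.85-fold). Mirg was higher by 1.11 (SE 0.31, limma adjusted p = 0.017; 6.57-fold). Over all genes tested 33.1% were called higher in this comparison. The Mirg call was lost without ES replicate 2 (0.95, limma adjusted p = 0.093) and with quantile normalization (0.75, limma adjusted p = 0.13).

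The 4F clones stood in the same order against the same 2 ES libraries. Rian was higher by 2.81 (SE 0.37, limma adjusted p = 0.00053; 9.67-fold), and Meg3 by 1.62 (SE 0.34, limma adjusted p = 0.0043; 9.65-fold). Mirg differed by 0.80 (SE 0.31), with a limma adjusted p of 0.054 that missed the threshold, although both 4F clones were above both ES libraries. The share of all tested genes called higher was 33.7%. Mirg passed with a pseudocount of 0.1 (1.85, limma adjusted p = 0.019) and in a fit of the 4F and ES libraries alone (limma adjusted p = 0.0026). The comparisons of the 2 kinds of clone with ES share the ES libraries and are not independent.

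Against MEF the maternal RNAs were lower in ES cells and in both kinds of clone. In ES cells Rian was lower by −5.19 (SE 0.37, limma adjusted p = 8.4e-06), Meg3 by −4.24 (SE 0.34, limma adjusted p = 1.5e-05) and Mirg by −2.64 (SE 0.31, limma adjusted p = 0.00013). In mean RPKM these were 52.0, 74.97 and 23.5 times lower than MEF, where 32% of all genes tested were called lower. In 3F+IL6 the differences were −2.20 for Rian, −2.70 for Meg3 and −1.53 for Mirg, with limma adjusted p from 0.00019 to 0.0025, and 32.6% of genes were called lower. In 4F they were −2.38, −2.63 and −1.84, with limma adjusted p from 0.00021 to 0.00093, and 34.4% of genes were called lower. These 3 comparisons share the MEF libraries. As deposited, the median difference of all genes tested was 0.26, 0.25 and 0.27 for 3F+IL6, 4F and ES against MEF, and with quantile normalization 0.06, 0.09 and 0.15, so the members' falls were against a median that lay slightly above 0. The order ES, then clones, then MEF, with no overlap, held for Rian, Meg3, Mirg and Dlk1, and for 11.2% of the 13200 genes.

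**Figure D3:**
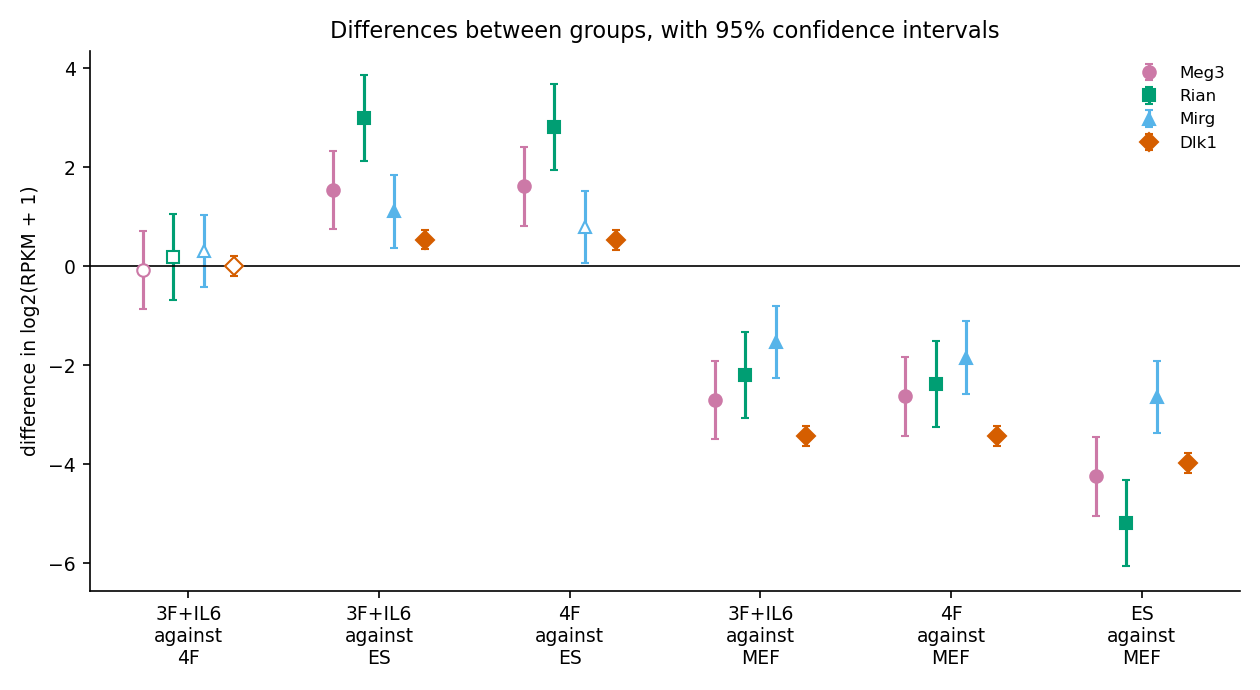
Difference in log2(RPKM + 1) between groups for Meg3, Rian, Mirg and Dlk1 in the 6 comparisons (first group minus second), with 95% confidence intervals from limma. Filled symbols have a limma adjusted p under 0.05; the 4 open symbols on the left, for 3F+IL6 against 4F, lie between −0.07 and 0.31, and Mirg in 4F against ES is open too.

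Between the kinds of clone no maternal RNA was called, in a comparison where 1.34% of all genes were. Meg3 differed by −0.07 (95% interval −0.87 to 0.72, limma adjusted p = 0.91), Rian by 0.18 (−0.69 to 1.05, limma adjusted p = 0.79) and Mirg by 0.31 (−0.42 to 1.04, limma adjusted p = 0.56). The result turned on which 3F+IL6 clone was included. Without clone 1, Meg3 was lower in 3F+IL6 by −0.65 (limma adjusted p = 0.023) and Rian by −0.48 (limma adjusted p = 0.013), in a fit that called 4782 of 13144 genes. Without clone 2, Rian was higher by 0.85 (limma adjusted p = 0.013) and Mirg by 0.84 (limma adjusted p = 0.03), in a fit that called 831 of 13124. In both fits 3F+IL6 is 1 library that is assumed to vary like the other groups. Leaving out a single library of another group gave 1 to 8 calls over all genes and 0 among the members.

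The maternal RNAs differed together between the 3F+IL6 clones. Clone 1 had 2.98 times the Meg3, 2.61 times the Rian and 3.25 times the Mirg of clone 2. Few genes were that far apart in this pair: 1.03% of the 13200 tested differed at least as much as Meg3, 0.682% as much as Rian and 1.3% as much as Mirg. Dlk1 was level between the same clones, at a ratio of 1.08, and 83.3% of genes were at least as far apart. In the 4F pair the ratio of clone 1 to clone 2 was 0.689 for Meg3, 0.837 for Rian and 1.12 for Mirg, which have no common direction. With 1 library per clone, a difference between clones has no replicate. Marker sums also differed between 3F+IL6 clones 1 and 2, at 463 and 632 RPKM for fibroblast, 25.9 and 15.9 for trophoblast and 35.4 and 53.2 for neural markers. Primitive and visceral endoderm markers summed to 5.23 and 10.2 and skeletal muscle markers to 78.5 and 54.0. Tfap2c alone gave 12.9 and 6.92 of the trophoblast sums, and Tubb3 21.9 and 34.9 of the neural sums. The part of these sums in the difference was not tested.

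The ratios among the maternal RNAs moved less than their levels. Per length, Rian exceeded Meg3 by 6.90 and 7.28 times in ES, 8.49 and 9.69 in 3F+IL6, 7.94 and 6.53 in 4F, and 4.93 and 4.90 in MEF. MEF had the lowest ratio, outside the range of every other library. Meg3 to Mirg ran from 0.745 to 3.10 in the ES and iPS libraries and was 3.45 and 3.34 in MEF.

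Dlk1, a membrane protein with EGF-like repeats that is related to Notch ligands and marks preadipocytes, was a MEF transcript in these data. It measured 0.307 and 0.294 RPKM in ES, 0.924 and 0.854 in 3F+IL6, 0.942 and 0.819 in 4F, and 19.3 and 19.4 in MEF. The 4 clones lay close together, above both ES libraries and far below MEF. The ES values stand for an estimated 22.1 and 20.5 reads. Only MEF reached 1 RPKM, so Dlk1 entered the fit through MEF and its differences from MEF, −3.43 for 3F+IL6, −3.44 for 4F and −3.97 for ES, describe that choice and are not counted as support. Against ES, Dlk1 was higher by 0.54 in 3F+IL6 (SE 0.08, limma adjusted p = 0.0014) and by 0.53 in 4F (SE 0.08, limma adjusted p = 0.0013), 2.96-fold and 2.93-fold in mean RPKM. With quantile normalization both calls were lost (0.11, limma adjusted p = 0.39; 0.15, limma adjusted p = 0.23). The kinds of clone differed by 0.01 (95% interval −0.19 to 0.21, limma adjusted p = 0.97).

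Of 15 other Notch pathway genes tested, 9 were higher and 5 lower in 3F+IL6 than in ES, and the counts in 4F were the same. The shares of all genes were 33.1% higher and 30.3% lower in 3F+IL6, and 33.7% and 33.5% in 4F. The receptor gene Notch3 was higher by 2.27 (3F+IL6) and 1.93 (4F), and the ligand genes Jag2 by 1.86 and 2.39 and Jag1 by 1.58 and 1.85. Rbpj, which encodes the DNA-binding partner of Notch, was lower by −1.54 and −1.50. Dlk2, the close relative of Dlk1, had a mean of 0.575 RPKM in ES and 5.003 in MEF. Only MEF reached 1 RPKM, so Dlk2 entered the fit through MEF, and its difference of −1.93 in ES is not counted as support. In the clones Dlk2 was lower than in ES, by −0.46 in 3F+IL6 and −0.47 in 4F. None of the 15 was called between the kinds of clone, where 1.34% of all genes were.

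Rtl1, a retrotransposon-derived gene needed in the placenta, was close to the limit of detection everywhere. Its values were 0.0239 and 0.0126 RPKM in ES, 0.0312 and 0.0658 in 3F+IL6, 0.0159 and 0.0298 in 4F, and 0.0842 and 0.258 in MEF. These stand for an estimated 1.19 to 9.56 reads per library, and 29.5 in MEF replicate 2. Both MEF libraries were above the other 6 and were far apart from each other. Rtl1 did not reach the filter. In the fit with no filter it was lower in ES than in MEF by −0.20 (limma adjusted p = 0.041) and in 4F by −0.19 (limma adjusted p = 0.045), where 25.2% and 26.8% of 19478 genes were called lower, and it missed the threshold in 3F+IL6 (−0.16, limma adjusted p = 0.087). No other comparison of Rtl1 was called.

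The maternal strand opposite Rtl1 carries miRNAs that pair with it in full. The RefSeq table used here holds 6 hairpins inside the GENCODE span of Rtl1 on the opposite strand. The full complement of all 11 of their mature miRNAs lies in the 6358-base transcript, each within the coding sequence. Such a match follows from a position opposite an exon and is not a separate result. One arm from each of 5 hairpins is shown because each is an exact antisense match to Rtl1 mRNA; capitals mark the seed, bases 2 to 8.
miR-431-5p, chr12:109590459-109590479: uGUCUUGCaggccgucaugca
miR-433-3p, chr12:109591781-109591802: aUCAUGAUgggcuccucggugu
miR-127-3p, chr12:109592888-109592909: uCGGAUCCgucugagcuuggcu
miR-434-3p, chr12:109594565-109594586: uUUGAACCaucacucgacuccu
miR-136-5p, chr12:109595331-109595352: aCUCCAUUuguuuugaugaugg
The 5 seeds differ from each other. Over the whole domain, 9 seeds were shared, each by 2 of the 113 mature miRNAs in that table, for example GGUUGUC of miR-410-5p and miR-494-5p.

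Mature miRNAs were not measured, since poly-A selection does not retain them, and the deposited values of small RNA genes rest on few reads. The tables list 59 miRNA and 4 small nucleolar RNA symbols in the domain, of which 54 and 2 were at 0 in all 8 libraries. The number above 0 was 0 and 0 in ES, 2 and 0 in 3F+IL6, 0 and 3 in 4F, and 6 and 2 in MEF. AF357426, a small nucleolar RNA gene within Rian, was at 0 in both ES libraries, 4.27 and 0 RPKM in 3F+IL6, 0 and 9.10 in 4F, and 3.21 and 3.14 in MEF. Dio3os, the RNA opposite Dio3, was at most 0.201 RPKM.

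Of 9 tested genes from the same retrotransposon family as Rtl1, 5 were higher and 1 lower in 3F+IL6 than in ES, and 5 and 2 in 4F. Among all genes the shares were 33.1% higher and 30.3% lower in 3F+IL6, and 33.7% and 33.5% in 4F. Ldoc1, Cxx1a, Zcchc18 and Cxx1c were higher by 1.26, 1.51, 0.77 and 1.70 in 3F+IL6. Ldoc1 and Zcchc18 reached 1 RPKM only in clones and so entered the fit through them. Their rises over ES, which are part of these counts, are not counted as support. Against MEF, 6 of the 9 were lower in ES and 2 higher, where 32% of all genes were called lower and 49.7% higher.

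Dio3, the deiodinase that inactivates thyroid hormone, ran against the other members. Its values were 0.815 and 0.821 RPKM in ES, 0.439 and 0.750 in 3F+IL6, 0.453 and 0.596 in 4F, and 0.330 and 0.206 in MEF. Each clone lay below both ES libraries and above both MEF libraries, the reverse of the order of Rian, and 11.4% of the 19478 genes above 0 in any library had that order. No library reached 1 RPKM. In the fit with no filter Dio3 was higher than in MEF by 0.52 in ES (SE 0.11, limma adjusted p = 0.0057) and by 0.33 in 3F+IL6 (limma adjusted p = 0.038), where 37.4% and 38.9% of genes were called higher. It missed the threshold in 4F against MEF (0.27, limma adjusted p = 0.072), in 4F against ES (−0.26, limma adjusted p = 0.098) and in 3F+IL6 against ES (−0.20, limma adjusted p = 0.19).

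Of 9 other thyroid hormone genes tested, 4 were higher and 2 lower in 3F+IL6 than in ES, and 4 and 3 in 4F. Among all genes 33.1% were higher and 30.3% lower in 3F+IL6, and 33.7% and 33.5% in 4F. The receptor gene Thra was higher by 0.88 in 3F+IL6 and 0.92 in 4F, and the corepressor gene Ncor1 was lower by −0.62 and −0.83. The deiodinase gene Dio1, named after its values were seen, was listed at 0 in all libraries.

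Summed per length, the maternal RNAs outweighed the paternal genes in each library, most of all in the clones. The 3 maternal RNAs summed to 3.07 and 2.71 RPKM in ES, 47.8 and 17.9 in 3F+IL6, 23.8 and 28.7 in 4F, and 149 and 149 in MEF. The 3 paternal genes summed to 1.15 and 1.13 RPKM in ES, 1.39 and 1.67 in 3F+IL6, 1.41 and 1.44 in 4F, and 19.7 and 19.8 in MEF. The ratio was 2.68 and 2.40 in ES, 34.3 and 10.7 in 3F+IL6, 16.9 and 19.9 in 4F, and 7.59 and 7.48 in MEF, so every clone was above every ES and MEF library. Meg3 to Dlk1 was near 1 in both references, at 1.08 and 1.05 in ES and 1.25 and 1.24 in MEF, and 1.85 to 5.11 in the clones. Rian was the largest part of the maternal sum in each library. The paternal sum was mostly Dlk1 in MEF and mostly Dio3 in ES, so the ratio sets different genes against Rian in these groups.

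Fibroblast markers moved with the members, since they too were higher in the clones than in ES. Of the 20 markers, 18 were higher in each kind of clone than in ES, where 33.1% (3F+IL6) and 33.7% (4F) of all genes were. As a percent of the MEF mean, their median was 0.212 and 0.132 in ES, 7.05 and 11.6 in 3F+IL6, and 7.69 and 6.58 in 4F, with 1 and 3 markers at 0 in the ES libraries and none at 0 in a clone. Single markers ranged from 1.69 to 141 in 3F+IL6 clone 1 and from 2.02 to 268 in clone 2. On the same scale Rian was at 1.94 and 1.90 in ES, 34.0 and 13.0 in 3F+IL6, and 16.9 and 20.2 in 4F. Meg3 was at 1.38 and 1.29, 19.7 and 6.61, and 10.5 and 15.2, in the same order. Rian was above the marker median in all 4 clones and Meg3 in 3, the exception being 3F+IL6 clone 2. Dlk1, at 4.24 to 4.87 in the clones, was below the marker median in all 4.

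**Figure D4:**
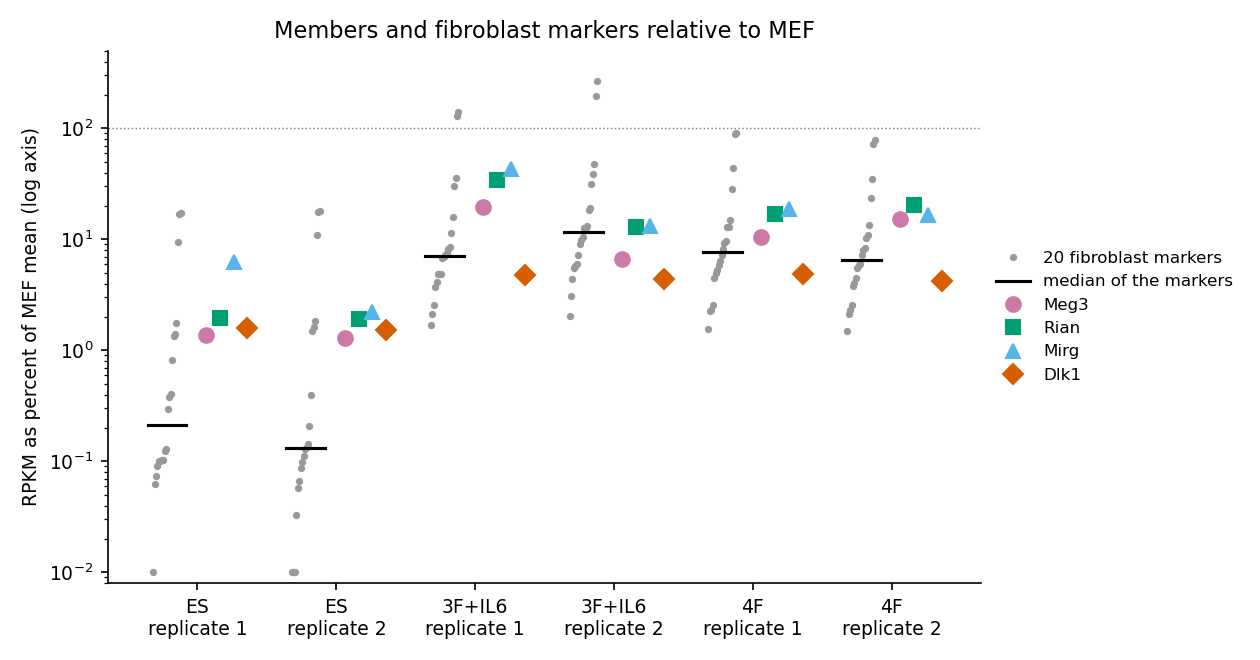
RPKM as a percent of the MEF mean (log axis) in the ES and iPS libraries, for Meg3, Rian, Mirg and Dlk1 (coloured symbols) beside 20 fibroblast markers (grey dots, with a bar at their median; markers listed at 0 sit at the bottom edge). 3F+IL6 clone 2 has the highest marker median, 11.6, and the lowest Meg3 and Rian of the clones.

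The 3F+IL6 clone with more fibroblast marker RNA had less of the maternal RNAs. When the median marker share of MEF RNA was subtracted from each library, Rian was 2.04 and 2.09 RPKM in ES, 31.7 and 1.72 in 3F+IL6, and 10.9 and 16.1 in 4F. Meg3 was then 0.281 and 0.276 in ES, 3.03 and 0 in 3F+IL6, and 0.673 and 2.07 in 4F. After this step 3 clones were above ES for both RNAs and 3F+IL6 clone 2 was not, and neither was called against ES in 3F+IL6 (Rian 1.62, limma adjusted p = 0.21; Meg3 0.65, limma adjusted p = 0.39) or in 4F (Rian 2.22, limma adjusted p = 0.098; Meg3 0.83, limma adjusted p = 0.28). Values that fell below 0 were set to 0, which was the case for Meg3 in 3F+IL6 clone 2 and for Dlk1 in all 4 clones. The Dlk1 difference from ES, −0.34 in each kind, is therefore fixed by the ES level, without spread among the clones, and is not counted as support. With the share taken from Dlk1 instead, chosen after seeing the data, Rian was 0.418 and 0.448 RPKM in ES, 34.4 and 10.1 in 3F+IL6, and 14.2 and 18.9 in 4F, and it was called in both kinds (3.79, limma adjusted p = 0.0009; 3.602, limma adjusted p = 0.00099). Subtraction assumes that MEF RNA entered in fixed proportion, which was not tested.

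Genes that flank the domain were also higher in the clones than in ES. Of 15 neighbours tested, 10 were higher and 0 lower in 3F+IL6, and 11 and 0 in 4F. Over all genes 33.1% were called higher and 30.3% lower in 3F+IL6, and 33.7% and 33.5% in 4F. The neighbours' median differences were 0.43 and 0.57 beside 0.01 and 0.00 over all genes. Ppp2r5c, a phosphatase subunit gene, had 14.9 and 15.2 RPKM in ES, 49.4 and 43.8 in 3F+IL6, 51.1 and 53.0 in 4F, and 25.8 and 27.7 in MEF. Its differences from ES were 1.57 and 1.72. The dynein heavy chain gene Dync1h1 differed by 1.37 and 1.49, and the chaperone gene Hsp90aa1 by 0.62 and 0.65. Unlike the maternal RNAs, both Ppp2r5c and Hsp90aa1 were higher in 3F+IL6 than in MEF, by 0.78 and 1.65. Against MEF, 10 of the 15 were lower in ES and 3 higher, where 32% and 49.7% of all genes were. None was called between the kinds of clone, where 1.34% of all genes were. For these genes too, strain and cell type cannot be told apart in the ES values.

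Genes that set or keep imprints were tested as a list of 21. In 3F+IL6 against ES 7 were higher and 8 lower, and in 4F 7 and 10. The shares of all genes were 33.1% and 30.3% in 3F+IL6, and 33.7% and 33.5% in 4F. Dppa3, which protects imprints from demethylation in the early embryo, was at 0.724 and 0.845 RPKM in ES and 12.8 to 15.5 in the clones, higher by 3.06 and 3.10. As Dppa3 was also low in MEF, it entered the fit through the clones, and this rise is not counted as support. The demethylating enzyme gene Tet1 was higher by 1.02 and 1.09. The methyltransferase gene Dnmt3b was higher by 2.79 in 3F+IL6 and 1.83 in 4F, and Trim28, the corepressor that ZFP57 recruits, was lower by −0.36 in 3F+IL6 and −0.63 in 4F. Zfp57, chosen after its values were seen, was at 137 and 137 RPKM in ES, 44.1 and 61.4 in 3F+IL6, 40.4 and 59.9 in 4F, and 16.4 and 15.3 in MEF. It was lower than in ES by −1.38 (limma adjusted p = 0.001) and −1.46 (limma adjusted p = 0.0007). Between the kinds of clone 2 of the 21 were called, where 1.34% of all genes were: Dnmt3a and Dnmt3b, higher in 3F+IL6 by 0.90 and 0.96. The 3F+IL6 clones were far apart in Dnmt3b, with a mean of 170 RPKM and an SD of 40.7.

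Of 11 genes of polycomb repressive complex 2, which has been linked to Meg3 RNA, 3 were higher and 3 lower in 3F+IL6 than in ES. Over all genes the shares were near this, at 33.1% higher and 30.3% lower. Ezh1 was higher by 1.81, and Aebp2, Mtf2 and Jarid2 were lower by −0.84, −0.79 and −0.70. None was called between the kinds of clone, where 1.34% of all genes were.

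Imprinted genes outside the domain moved in both directions. Of 24 tested, 13 were higher and 6 lower in 3F+IL6 than in ES, and 11 and 6 in 4F. Over all genes 33.1% and 30.3% were in 3F+IL6, and 33.7% and 33.5% in 4F. Grb10 was higher by 3.18 and 2.13, Peg3 by 1.54 and 1.27, and the growth inhibitor gene Cdkn1c by 2.81 and 2.46. Snurf was listed at 0 in both ES libraries and at 36.8 to 44.2 RPKM in the clones, while Snrpn, which shares its transcript, was at 34.5 and 35.1 in ES. Only Grb10 was called between the kinds of clone, where 1.34% of all genes were. Against MEF, 12 of the 24 were higher in ES and 11 lower, where 49.7% and 32% of all genes were. H19 and Igf2 were lower in ES than in MEF, by −3.13 and −4.40, and Snrpn was higher by 2.85.

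Genes with the profile most like each member across the 8 libraries were found by the root mean square (RMS) difference of log2(RPKM + 1) centred on each gene's mean, over 8688 genes with a mean of at least 5 RPKM. For Meg3 they were Ptx3 (0.23), Cxcl12 (0.31) and Hdac7 (0.31), beside a median of 1.72 over all genes. Ptx3 had 3.603 RPKM in 3F+IL6 clone 1 and 1.35 in clone 2, a difference in the same direction as that of Meg3. For Rian they were Pla2g4a (0.33), Anxa2 (0.44) and Lbh (0.45), and of these Anxa2 differed between the 3F+IL6 clones, at 196 and 92.0 RPKM. For Mirg they were Tsc22d3 (0.26), Ankrd50 (0.26) and Lgals3 (0.29), and for Dlk1 Lrrfip1 (0.13), Nexn (0.14) and Ets1 (0.15). Between members the RMS difference was 0.55 for Meg3 and Rian, 0.55 for Meg3 and Dlk1 and 0.61 for Meg3 and Mirg. It was 0.97 for Rian and Mirg, 1.03 for Rian and Dlk1 and 0.77 for Mirg and Dlk1. The nearest genes were picked as the closest of 8688, so some would be expected to lie closer than another member. The measure is not scaled to the size of each gene's changes, so it does not show whether members move together. All of these points share the same libraries and depth.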

How the data were processed

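Each of the 8 deposited tables holds a single value per gene symbol, and no header names its unit. The authors' deposited values were read as RPKM because low values multiplied by transcript length cluster at steps constant within a library. Of these low values 57.1% to 62.0% were whole within 0.1 read, so counts were not recovered. The submitters' processing notes name mm10 as the genome. Which aligner, counting tool and gene models were used is not given in the sources used. Libraries held poly-A RNA taken with oligo-dT beads, per the labels' protocols.

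All 8 samples were fitted on the log2(RPKM + 1) scale with group means in limma 3.58.1 (R 4.3.3), with a variance trend and no replicate block. The tests had 6.94 total degrees of freedom, which add limma's prior, drawn from all genes, to the fewer residual ones. Tests were two-sided, with Benjamini-Hochberg adjustment within a comparison over its 13200 genes and a threshold of 0.05. All 6 members were named, with up to 4 genes of smallest p per list and the 3 nearest profiles per member; genes outside this rule are marked in the text, and a gene that the rule names is left out of it. The members and lists were chosen with earlier results of these data known. Alternatives were the pseudocount, filter, scaling, replicate block, samples fitted, fibroblast share and leaving out each library. Annotation came from GENCODE M21 and RefSeq GRCm38.p6, and figures were drawn with matplotlib 3.10.9.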

Additional observations from a re-analysis of the deposited data

How the results depend on the processing

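Of 404 alternative values for the 4 members tested, 376 kept their direction and side of the threshold, 8 gained and 9 lost a call, and 11 changed sign, 9 of them between the kinds of clone. There, Dlk1 became −0.032 with median centring and −0.042 with quantile normalization, and Rian −0.60 with the fibroblast share subtracted. Leaving out each library gave −0.65 to 0.50 for Meg3, −0.48 to 0.85 for Rian, −0.22 to 0.84 for Mirg and −0.04 to 0.055 for Dlk1 between the kinds of clone, with the sign turning without 3F+IL6 replicate 1 (Rian −0.48, Mirg −0.22, Dlk1 −0.019), without 3F+IL6 replicate 2 (Meg3 0.50) and without 4F replicate 2 (Meg3 0.13, Dlk1 −0.04). With the fibroblast share subtracted Dlk1 was −0.34 against ES in both kinds of clone, where its clone values had been set to 0. No difference from MEF changed sign or lost its call in the settings in which the member was fitted. For Dlk1, which entered the fit through MEF, this is not counted as support. Its differences from MEF are also part of the tally above. Dlk1 dropped out of the fit without either MEF library and Mirg with a minimum mean RPKM of 5.

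Members called in 3F+IL6 against ES fell from 4 to 2 with quantile normalization, to 1 with the fibroblast share subtracted (Dlk1, lower) and to 2 in a fit of those 4 samples, where the filter left 2 members. In 4F against ES they fell from 3 to 1 (Dlk1, lower) with the fibroblast share subtracted. Both of these Dlk1 calls rest on clone values that had been set to 0, and they are not counted as support. In the fit of all 8 samples as deposited, 33.1% of all genes tested were called higher and 30.3% lower in 3F+IL6 than in ES. For 4F against ES the shares were 33.7% and 33.5%. Leaving out a library leaves 1 library in its group, so members called in those fits are not counted here. Between 3F+IL6 and 4F, the call was made for 177 of all genes tested, and for 56 with a pseudocount of 0.1, 315 with quantile normalization, 36 with a replicate block, 269 with the fibroblast share subtracted, 17 in a fit of the 4 clones, and 1 to 4782 when each library was left out. The cause was not tested.

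The replicate numbers do not pair the samples: correlations of same-numbered deviations ran from −0.055 to 0.214. With the replicate block, Mirg was called in 4F against ES (0.80, limma adjusted p = 0.034), and the block changed no other member's call. The spread is shared by all groups although the 3F+IL6 clones differ most. Depth limits Rtl1 and Dio3, which rest on a few reads, and Mirg and Dlk1 in ES.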
